A study of Mus musculus with 7 samples.

Results

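Glioma cells with no functional Ptprd allele (null, Ptprd-/-p16-/-, 3 arrays) were compared with glioma cells that kept 1 allele (heterozygous, Ptprd+/-p16-/-, 2 arrays), 5 of the 7 arrays measured, chosen by the genotype in their titles. The other 2 arrays, from Ptprd+/+p16-/- tumours (wild type), entered the shared estimate of the spread, and their values are printed for some genes and lists. All mice, wild type included, lacked p16, a cell cycle inhibitor, on a background that mixed the strains C57/BL6 and FVB/N. Tumours were induced on postnatal days 1 to 3 by cerebral injection of RCAS-PDGFB-GFP. This vector delivers platelet-derived growth factor B (PDGFB) and green fluorescent protein to cells that carry the avian receptor tv-A, which the mice expressed under the Nestin promoter, active in neural progenitors. Mice were sacrificed when symptomatic or after 12 weeks, and the age behind each array is not given. Fluorescent cells that excluded the dead-cell dye DAPI were sorted, and 75 ng of their total RNA was hybridised to Affymetrix mouse 3' expression arrays. Arrays of a group are labelled biological replicates. Since the labels do not say whether an array holds the tumour of 1 mouse or of several, p-values refer to the spread among these arrays alone.

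Ptprd encodes a receptor-type tyrosine phosphatase of the LAR family, which carries immunoglobulin and fibronectin repeats outside the cell and phosphatase domains inside it. It is known as a synaptic organiser in neurons, as a gene lost or silenced in human glioblastoma, and as a phosphatase of STAT3, the transcription factor downstream of interleukin-6 family cytokines. Gliomas driven by PDGFB resemble oligodendrocyte progenitors and the proneural class of human glioma, whereas the mesenchymal class is marked by Cd44, STAT3 and C/EBP activity and matrix genes. The comparison asks what the loss of the second allele adds to the loss of the first.

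The arrays had medians between 6.63 and 6.72 (log2). Across the 14965 probe sets tested, which are not independent replicates, the correlation among null arrays was 0.981 to 0.985, that of the heterozygous pair 0.984, and that of null with heterozygous arrays 0.946 to 0.972. Sex-linked transcripts did not match a single sex on 2 of the 5 arrays. Xist, which coats the silenced X chromosome, was at 11.16 and the Y-linked Kdm5d at 7.86 on heterozygous replicate 1, and at 12.73 and 6.98 on null replicate 1. Heterozygous replicate 2 and null replicate 3 carried Xist (12.92 and 12.60) without Kdm5d (2.74 and 3.18), and null replicate 2 carried Kdm5d (8.50) with Xist at 5.14. Counts without heterozygous replicate 1 and null replicate 1 are therefore given below. The cells carried markers of oligodendrocyte progenitors, a type that the labels do not name. The 16 progenitor genes tested, Olig2, Pdgfra and Sox10 among them, had mean levels between 10.54 and 11.37 on every array, far above the array medians.

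Ptprd RNA did not differ detectably between null and heterozygous cells. Its brightest probe set stood at 9.61, 8.95 and 9.93 on null replicates 1, 2 and 3, at 9.42 and 9.57 on the heterozygous and at 10.86 and 10.89 on the wild-type arrays. The null arrays lay on both sides of the heterozygous pair, and all 5 lay below both wild-type arrays. The log2 difference of null minus heterozygous was 0.00 (95% interval -0.60 to 0.61), and the other probe sets gave 0.29 (-0.29 to 0.87) and 0.08 (-0.46 to 0.63). Where the targeted deletion lies relative to these probes is not known here, so they do not check which arrays are null, and the 2 groups rest on the labels.

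Even so, null and heterozygous cells differed widely. Of 14965 single-gene probe sets that passed a filter on dim signals (over the 30th percentile of 2 or more arrays) and were tested, 999 passed an adjusted p of 0.05 (6.68%), 517 of them higher in null (3.45%) and 482 lower (3.22%). Counted once per gene at its brightest probe set, 692 of 9241 genes passed (7.49%), 394 higher (4.26%) and 298 lower in null (3.22%), around a median difference of 0.04 over all genes. The 2 directions differed in size. Among the lower genes 172 (1.86% of all genes) differed over 2-fold and 42 over 4-fold, and among the higher genes 84 (0.909%) and 5, with medians of -1.18 and 0.76. With each array centred on its own median, 1226 probe sets passed, of which 61.9% were higher in null, against 51.8% here. The null arrays themselves, set against wild type in the same fit, gave 0 probe sets past the threshold with limma (889 at an unadjusted p under 0.05, 5.94%), and heterozygous against wild type gave 1180 (7.89%). These comparisons share arrays with each other. For 293 of the 298 lower and 388 of the 394 higher genes, the wild-type mean lay nearer the null than the heterozygous mean. The median of null minus wild type was 0.01 over the lower and -0.03 over the higher genes.

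**Figure D1:**
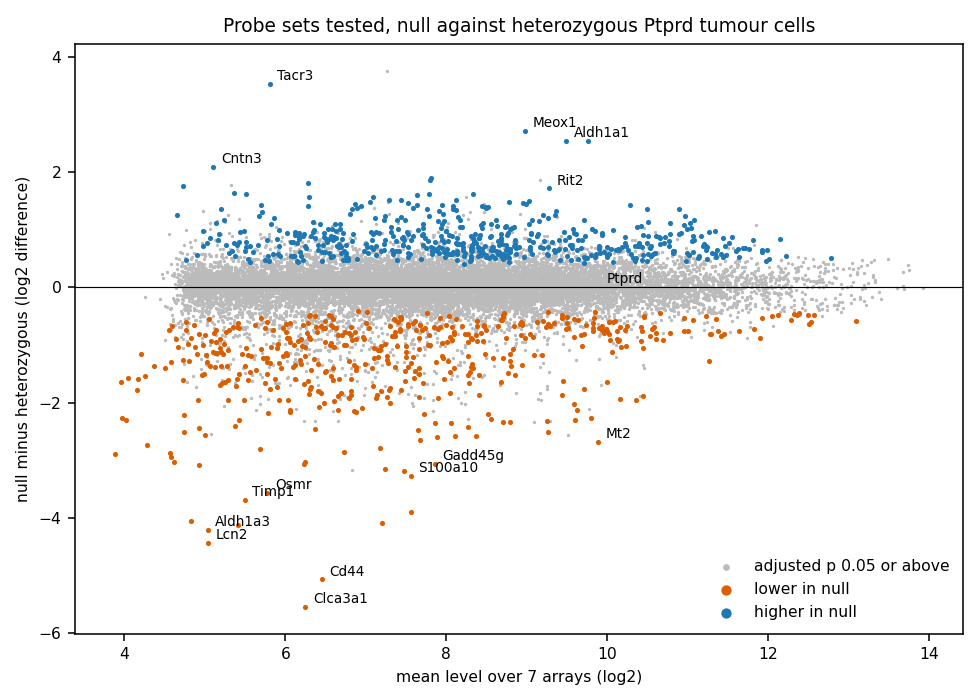
Each point is a probe set, placed by its mean level over the 7 arrays (log2) and the log2 difference of null minus heterozygous cells; orange points are lower and blue points higher in null at an adjusted p under 0.05. The 482 lower probe sets reach down to -5.55 for Clca3a1, and the 517 higher ones up to 3.53 for Tacr3.

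The counts rest on few arrays. Without heterozygous replicate 1 only 22 probe sets passed, without null replicate 3 209, without null replicate 1 357, without heterozygous replicate 2 551 and without wild-type replicate 1 or 2 399 each. Without heterozygous replicate 1 and null replicate 1, the arrays with both sex-linked signals, 0 passed with limma (2063 at an unadjusted p under 0.05), which leaves 1 heterozygous array that is assumed to vary like the other groups. Without moderation of the spread across probe sets 9 passed. Leaving out a heterozygous array also takes genes that were bright there alone below the filter, so that 660 of the 692 genes were tested without heterozygous replicate 1. The values of each array are therefore printed for the genes described first.

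Set against heterozygous cells, the largest deficits in null cells were those of Clca3a1, Cd44 and Lcn2. Cd44, the hyaluronan receptor, stood at 4.60, 6.45 and 3.96 on null replicates 1, 2 and 3 and at 9.88 and 10.27 on the heterozygous arrays, with 6.21 and 3.79 in wild type. Null replicate 2 was the highest of the null arrays and still lay far below the heterozygous pair, and the log2 difference was -5.07 ± 0.86 (SE, adjusted p = 0.0244; -2.27 in its other probe set). Clca3a1, a secreted protein of the chloride channel accessory family, gave 3.56, 5.40 and 4.50 against 9.60 and 10.48 (6.99 and 3.20 in wild type), a difference of -5.55 ± 1.04 (adjusted p = 0.0314), and its relative Clca3a2 differed by -2.89. Lcn2, an iron-binding acute-phase protein, was at 3.88, 3.88 and 3.60 in null and at 7.29 and 9.16 in heterozygous cells (-4.44 ± 0.48, adjusted p = 0.00735). It was below the 30th percentile on every null and wild-type array, and the heterozygous arrays differed from each other. Timp1, an inhibitor of metalloproteases, was at 4.47, 4.60 and 4.44 on the null arrays, all below their 30th percentile, against 8.51 and 7.88 (-3.69 ± 0.18, adjusted p = 0.001), with 4.31 and 4.22 in wild type. Osmr, the receptor subunit for oncostatin M, was at 4.62, 5.06 and 4.30 against 7.85 and 8.61 (-3.57 ± 0.42, adjusted p = 0.00949), with 5.65 and 4.34 in wild type.

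Enzymes and stress genes were among the largest deficits too. Aldh1a3, which makes retinoic acid, was at 3.56, 4.52 and 3.45 in null and 8.23 and 7.87 in heterozygous cells (difference -4.21 ± 0.34, adjusted p = 0.0028; -2.45 to -1.0 in its other probe sets). Hpgd, which degrades prostaglandins, differed by -3.91 ± 0.53 and the monooxygenase-like Moxd1 by -4.10 ± 0.85, with null replicate 2 at 8.02 between the other null arrays (5.39 and 4.84) and the heterozygous pair (10.52 and 9.84). Gadd45g, a growth arrest and stress gene, was above the array medians in both groups, at 6.92, 7.11 and 6.79 against 10.17 and 9.85 (-3.07 ± 0.15, adjusted p = 0.001). The remaining genes of the 15 largest deficits were S100a10 (-3.27), Cacng5 (-3.16), Myo5b (-3.08), Lgals3 (-3.03) and Ccn3 (-2.95), which encode the annexin A2 partner S100a10, a channel and AMPA receptor subunit, an unconventional myosin, galectin-3 and a matricellular protein. For Lcn2, Aldh1a3, Timp1, Myo5b, Ccn3 and Clca3a2 all 3 null arrays lay below their 30th percentile, so that the size of these differences is taken against a dim level. Of those still tested, 2 of 9 passed without heterozygous replicate 1, 5 of 9 without heterozygous replicate 2, 11 of 15 without null replicate 1, 10 of 15 without null replicate 3 and 0 of 9 without both arrays of mixed sex-linked signal. All null arrays were that dim for 34 of the 298 lower genes.

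In the other direction, the largest excesses of null over heterozygous cells were those of Tacr3, Meox1, Aldh1a1 and Pcdhb9. Tacr3, the neurokinin B receptor, stood at 6.19, 6.90 and 7.50 on the null arrays and at 3.55 and 3.13 on the heterozygous arrays, with 6.56 and 6.80 in wild type. Both heterozygous arrays lay below every other array, and the difference was 3.53 ± 0.35 (adjusted p = 0.0055). The homeobox factor Meox1 was at 9.99, 9.36 and 10.16 against 6.61 and 7.64 (2.72 ± 0.36, adjusted p = 0.0129). Aldh1a1, a retinaldehyde dehydrogenase like Aldh1a3, was at 10.18, 9.89 and 11.02 against 7.76 and 7.90 (2.53 ± 0.44), opposite in direction to Aldh1a3. The protocadherin Pcdhb9 was at 10.24, 11.02 and 9.39 against 7.50 and 7.87 (2.53 ± 0.41, adjusted p = 0.0209), and the wild-type arrays were higher than any null array (11.14 and 11.18). Further large excesses were those of the contactin Cntn3 (2.08), the inner-ear protein gene Otos (1.91), the amino acid transporter Slc7a10 (1.86), the neuronal small GTPase Rit2 (1.72), the glutamate carboxypeptidase Folh1 (1.63), the cytokine Il15 (1.62), the immune checkpoint gene Vsir (1.61), the teneurin Tenm1 (1.57), the adhesion genes Nectin4 (1.57) and L1cam (1.51), and the Notch feedback gene Nrarp (1.50). For 11 of the 394 higher genes, Tacr3, Cntn3, Il15 and Folh1 among them, both heterozygous arrays lay below their 30th percentile. Of those still tested, 1 of 15 passed without heterozygous replicate 1, 10 of 15 without heterozygous replicate 2, 10 of 15 without null replicate 1, 9 of 15 without null replicate 3 and 0 of 15 without both arrays of mixed sex-linked signal.

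**Figure D2:**
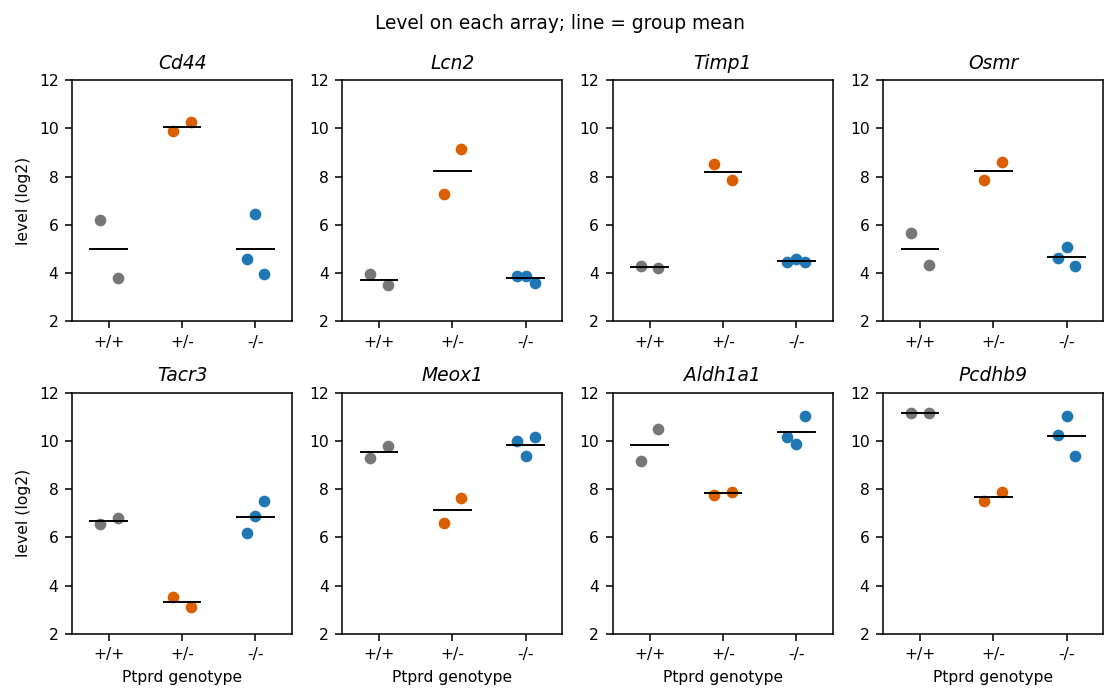
Level of 8 genes (log2) on each array by Ptprd genotype, with points in replicate order and a line at the group mean. The upper row holds genes lower in null (-/-) than in heterozygous (+/-) cells and the lower row genes higher in null; Cd44 stands between 3.96 and 6.45 on the null arrays and at 9.88 and 10.27 on the heterozygous ones.

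Most tested genes of the mesenchymal glioma class were lower in null cells. Of the 30 genes listed, 27 on the array and 23 tested, 15 were lower and 0 higher in null cells, beside 3.22% lower and 4.26% higher among all genes. Without the filter the counts were 12 and 0, and 2 of those tested passed the filter through the heterozygous arrays alone. The median log2 difference was -1.67, and -1.004 over all members on the array. The mean level of the list was 6.66, 6.96 and 6.61 on the null arrays, 8.34 and 8.38 on the heterozygous arrays and 6.69 and 6.37 on the wild-type arrays. Both heterozygous arrays were above the other 5, whose null and wild-type values overlapped. Besides Timp1, Cd44, Osmr and Lgals3, the genes lower in null included Anxa2, an annexin of the cell membrane (-2.15 ± 0.11, adjusted p = 0.00113), the calcium-binding S100a6 (-1.77), the membrane proteins Emp1 and Emp3 (-2.55 and -2.45), the intermediate filament Vim (-1.94) and Cebpd, a transcription factor of the class (-1.87, and -0.28 in its other probe set). Of the class's other regulators, Cebpb (-0.28, adjusted p = 0.377) and Runx1 (-0.29, adjusted p = 0.201) did not pass at their brightest probe sets, but a dimmer probe set of each did (-0.62 and -1.58), and the remaining Runx1 probe sets did not. The counts were 1 lower and 0 higher without heterozygous replicate 1 (median -1.24), and 7 and 0 without heterozygous replicate 2 (median -1.35).

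Annexins and galectins that passed were lower in null, and S100 genes passed in both directions. Among the annexins, 5 of 7 tested (11 on the array) were lower in null, beside 3.22% of all genes, Anxa2 (-2.15), Anxa3 (-2.22), Anxa4 (-1.30), Anxa5 (-1.23) and Anxa1 (-1.18), while Anxa6 (0.38) and Anxa7 (-0.12) did not pass. Anxa3 and Anxa4 lay below the 30th percentile on every null and wild-type array and passed the filter through the heterozygous arrays alone. The annexin median was -1.23 over those tested and -0.27 over all on the array. S100a10, S100a6 and S100a4 (-1.36) were lower and S100b, the glial member of that family, was higher in null (0.87, adjusted p = 0.025), with the other 7 of 11 not called. Galectin genes Lgals1 and Lgals3 were lower (-2.34 and -3.03), and 4 of 6 did not pass, Lgals9 (-0.86) among them. The median of the galectins was -0.79 over those tested and 0.06 over all on the array. Without heterozygous replicate 1 the 3 families had 1, 0 and 0 lower genes, and without heterozygous replicate 2 2, 2 and 1.

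STAT3 targets and acute-phase genes were lower in null cells where they differed, with 1 exception. Of 29 genes listed, 27 on the array and 24 tested, 8 were lower and 1 higher in null cells, beside 3.22% lower and 4.26% higher among all genes. Unfiltered counts were 8 and 1, and 3 of those tested passed the filter through the heterozygous arrays alone. Tested members had a median log2 difference of -0.49, and all members on the array one of -0.42. The lower genes were Timp1 (-3.69), Lcn2 (-4.44), Osmr (-3.57), Bcl3 (-2.81), Myc (-1.66), Socs3 (-1.62), Gfap (-1.46) and Junb (-0.71), and the copper carrier Cp was higher (1.20, adjusted p = 0.027). Socs3, the feedback inhibitor that STAT3 induces, stood at 9.11, 9.17 and 8.75 in null and 10.46 and 10.80 in heterozygous cells (-1.62 ± 0.20, adjusted p = 0.0103). Stat3 itself was at 9.95, 10.34 and 10.01 against 10.48 and 10.70 (-0.49, adjusted p = 0.103), and the acute-phase gene Serpina3n at -2.57 just missed the threshold (adjusted p = 0.0503). Among 19 receptors, kinases and regulators of the interleukin-6 family tested, Osmr and Socs3 were lower, the LIF receptor Lifr (1.13; 0.22 to 0.60 in other probe sets) and the STAT inhibitor Pias1 (0.60) were higher, and the shared subunit Il6st (0.12) and Jak1 (0.17) did not pass. The counts of STAT3 targets were 1 lower and 0 higher without heterozygous replicate 1 (median -0.60), and 4 and 1 without heterozygous replicate 2 (median -0.32).

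Promoter windows of genes that were lower in null are shown because STAT and AP-1 factors bind short motifs there. RefSeq windows of GRCm38.p6 reach from 250 bases before to 50 bases after the annotated start and are printed 5′ to 3′ on the gene's strand, with matches to TTCNNNGAA (STAT) or TGANTCA (AP-1), on either strand, in capitals. The STAT match begins 154 bases before the start of Socs3 (chr11:117969317-117969616, minus strand) and 2 bases before that of Gfap (chr11:102897151-102897450, minus strand), and the AP-1 match 79 bases before that of Mt2 (chr8:94172368-94172667, plus strand) and just after that of Osmr (chr15:6874264-6874563, minus strand).
Socs3: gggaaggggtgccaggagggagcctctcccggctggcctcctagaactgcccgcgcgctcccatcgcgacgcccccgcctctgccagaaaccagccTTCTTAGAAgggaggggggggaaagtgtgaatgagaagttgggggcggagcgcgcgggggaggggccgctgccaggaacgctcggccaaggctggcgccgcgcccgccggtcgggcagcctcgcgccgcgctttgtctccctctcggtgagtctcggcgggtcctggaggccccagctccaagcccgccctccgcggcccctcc
Gfap: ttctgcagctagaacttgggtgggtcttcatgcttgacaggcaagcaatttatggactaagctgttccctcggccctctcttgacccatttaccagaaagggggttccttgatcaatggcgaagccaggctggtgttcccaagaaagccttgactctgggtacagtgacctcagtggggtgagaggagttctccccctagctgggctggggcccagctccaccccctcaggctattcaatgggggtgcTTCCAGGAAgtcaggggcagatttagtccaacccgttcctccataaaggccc
Osmr: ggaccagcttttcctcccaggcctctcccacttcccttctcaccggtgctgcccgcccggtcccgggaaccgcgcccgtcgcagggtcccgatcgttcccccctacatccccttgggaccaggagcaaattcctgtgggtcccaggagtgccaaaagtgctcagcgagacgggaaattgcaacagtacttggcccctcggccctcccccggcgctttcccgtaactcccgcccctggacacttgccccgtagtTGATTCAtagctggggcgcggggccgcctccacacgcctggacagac
Mt2: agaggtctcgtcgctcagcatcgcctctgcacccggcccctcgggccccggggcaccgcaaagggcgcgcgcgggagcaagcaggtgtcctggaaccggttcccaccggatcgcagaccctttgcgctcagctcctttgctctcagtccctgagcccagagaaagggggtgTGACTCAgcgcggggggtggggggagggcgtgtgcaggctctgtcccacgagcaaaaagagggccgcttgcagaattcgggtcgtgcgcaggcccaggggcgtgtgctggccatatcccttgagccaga
The STAT motif was in 8.7% of 299 windows of genes lower in null, in 5.2% of 442 windows of genes higher in null, in 6.58% of the 9735 windows of genes tested and in 8.3% of all 32851 windows. For AP-1 the shares were 8.7%, 5.43%, 4.97% and 7.81%. Of the 298 lower and 394 higher genes, 234 and 320 had a window, some more than 1. A match is a description of the sequence and not a binding site.

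Some matrix genes, collagens among them, were lower in null cells. Of 43 genes listed, 40 on the array and 32 tested, 8 were lower and 2 higher in null cells, beside 3.22% lower and 4.26% higher among all genes. Without the filter the counts were 7 and 1, and 1 of those tested passed the filter through the heterozygous arrays alone. The median log2 difference was -0.50, and -0.13 over all members on the array. Lower in null were Tnc (-2.86), Mgp (-2.79), Col6a1 (-1.96), Col18a1 (-1.89), Col11a1 (-1.89), Fbln5 (-1.31), Col6a2 (-1.22, and -0.27 in its other probe set) and Col5a2 (-0.77). Tnc, tenascin-C, stood at 5.50, 6.67 and 5.48 against 8.84 and 8.66. The aggrecan family members Bcan (0.90) and Acan (0.83) were higher in null, a share near that of all genes. Sparc (-1.01, adjusted p = 0.0539) and its relative Sparcl1 (1.08, adjusted p = 0.0548) pointed in opposite directions without passing. Among 21 metalloproteases and inhibitors tested, Timp1 was lower and Timp4 higher in null (1.06, adjusted p = 0.0295), and 19 did not pass. Of 10 integrins, the laminin receptor chain Itga6 was lower (-1.58). Retinoid genes other than Aldh1a3 and Aldh1a1 included the receptor Rxrg (0.96) and the binding protein Rlbp1 (0.90), both higher in null. The matrix counts were 0 lower and 0 higher without heterozygous replicate 1 (median -0.42), and 4 and 0 without heterozygous replicate 2 (median -0.30).

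Markers of microglia and macrophages, cells that a sort for tumour fluorescence is not meant to keep, were lower in null than in heterozygous samples. Of 33 genes listed, 30 on the array and 25 tested, 10 were lower and 0 higher in null cells, beside 3.22% lower and 4.26% higher among all genes. Unfiltered counts were 9 and 0, and 3 of those tested passed the filter through the heterozygous arrays alone. Tested members had a median log2 difference of -1.23, and all members on the array one of -1.03. The mean level of the list was 5.52, 5.98 and 5.54 on the null arrays, 6.54 and 6.88 on the heterozygous arrays and 5.68 and 5.33 on the wild-type arrays. Null replicate 2 was the highest null array and the heterozygous arrays were above all others. Ptprc, the leukocyte antigen CD45, was at 4.33, 4.58 and 4.53 against 5.88 and 5.62 (-1.27 ± 0.13, adjusted p = 0.00567). It was below the 30th percentile on every null array, as was Cd68. Csf1r, the receptor for colony-stimulating factor 1, was at 7.48, 7.74 and 7.65 against 8.58 and 9.13 (-1.23 ± 0.19, and -0.62 and -0.18 in its other probe sets). Cd53 (-1.50), Ctss (-1.52), Cd52 (-1.70) and Cd68 (-1.03) were lower too. Spi1 (means of 5.07 in null and 5.06 in heterozygous cells) and Msr1 (4.97 and 4.88) were not lower. The complement genes C1qa, C1qb and C1qc lay at -1.40, -1.25 and -1.51 (adjusted p between 0.0538 and 0.0591), while the resident microglia markers P2ry12 (-0.28) and Tmem119 (-0.08) were close to the 30th percentile of the arrays in both groups, and Aif1, Itgam, Gpr34, Cd86 and Mrc1 were below the filter. Fewer cells of a type and less RNA per cell cannot be told apart in these samples. The part of these markers in the other differences between null and heterozygous cells was not tested, although macrophages also express several of those genes, such as Cd44, Lgals3, Anxa1 and Vim. The counts were 1 lower and 0 higher without heterozygous replicate 1 (median -1.46), and 2 and 0 without heterozygous replicate 2 (median -0.95).

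Few markers of other cell types passed, beside 3.22% lower and 4.26% higher among all genes. Of the T, B and NK cell markers 14 were on the array, 4 were tested and 0 passed with limma (0 at an unadjusted p under 0.05), and of 4 red blood cell genes 0 reached the filter. Lcn2 was the single gene called of 5 granulocyte genes, with S100a8 (0.92) and S100a9 (0.99) on the other side of 0. Tagln, a smooth muscle and pericyte gene, was the single one called of 14 endothelial and pericyte genes (-1.29). Of the smooth muscle genes Myl9 and Acta2 on that list, Myl9 lay on the other side of 0 (1.16, adjusted p = 0.139). Acta2 lay at -0.47, and neither passed. The endothelial Flt1 (0.00) and Cldn5 (0.18) did not pass. Of 8 ependymal and choroid plexus genes 0 passed with limma (3 at an unadjusted p under 0.05), at mean levels of 7.69 on null replicate 1 and 6.38 and 6.65 on null replicates 2 and 3, against 7.21 and 7.20 in heterozygous cells. Myelin genes gave 0 of 12 with limma (3 at an unadjusted p under 0.05), with Cldn11 at -1.34 (adjusted p = 0.0774). These unadjusted counts stand beside 4174 of 14965 probe sets at an unadjusted limma p under 0.05 with arrays centred on the median.

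Chemokines and interferon genes differed for a few members. Of 18 chemokines and receptors tested, the monocyte attractant Ccl12 (-1.79 ± 0.27, adjusted p = 0.0177), Cxcl14 (-0.75, and -0.10 in its other probe set) and the receptor Cxcr4 (-0.75) were lower in null, and the scavenging receptor Ackr3 was higher (0.98), beside 3.22% lower and 4.26% higher among all genes. Of the 18, 4 passed the filter through the heterozygous arrays alone, among them Ccl12, which lay below the 30th percentile on every null and wild-type array. Ccl2 differed by -0.88 (adjusted p = 0.0517). Of 27 interferon response genes, Ifitm3 (-2.29 ± 0.33, adjusted p = 0.0159), Ifitm2 (-1.08) and Gbp2 (-1.73) were lower, and 10 had groups that did not overlap in that direction (all genes 17.9%). Their mean level was 7.65, 7.57 and 7.12 on the null arrays, 8.73 and 7.73 on the heterozygous arrays and 6.59 and 7.36 on the wild-type arrays. Heterozygous replicate 1 was the highest and heterozygous replicate 2 close to the null arrays, and the median of the list was -0.74 with heterozygous replicate 1 and -0.21 without it. Antigen presentation genes gave 0 of 18 past the threshold with limma, with H2-Ab1 at -1.43 (adjusted p = 0.0945) and B2m at -0.27. At an unadjusted limma p under 0.05 there were 2 of them, beside 4174 of 14965 probe sets with arrays centred on the median. Fits without heterozygous replicate 1 and 2 called 0 and 1 chemokine genes and 0 and 3 interferon genes.

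**Figure D3:**
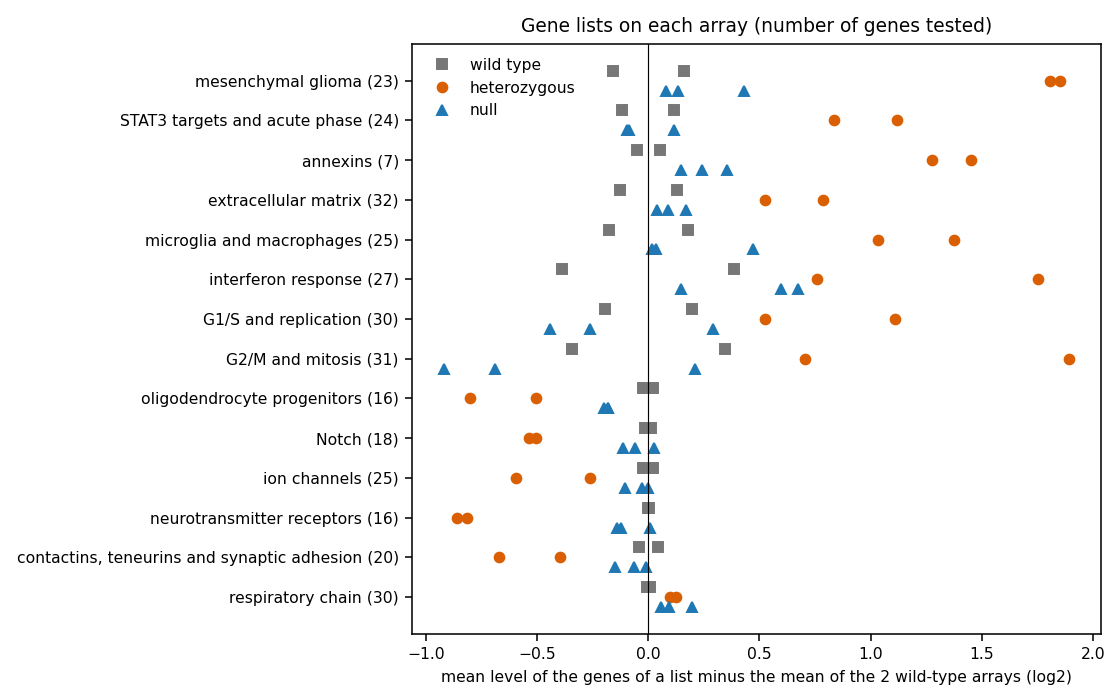
Mean level of the tested genes of a list on each array, as the log2 difference from the mean of the 2 wild-type arrays, with squares for wild type, circles for heterozygous and triangles for null. The heterozygous arrays lie to the right of the others for mesenchymal, STAT3, annexin and macrophage lists and to the left for progenitor, Notch, channel and receptor lists; for interferon and G2/M genes heterozygous replicate 1 lies farthest out.

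Proliferation genes passed only as lower in null cells, a minority of those tested, and the arrays of each group differed widely. Of 33 genes listed, 31 on the array and 31 tested, 6 were lower and 0 higher in null cells, beside 3.22% lower and 4.26% higher among all genes. Without the filter the counts were 1 and 0. The median log2 difference was -1.86, and -1.86 over all members on the array. The groups did not overlap, with null lower, for 27 of those tested (all genes 17.9%). Their mean level was 7.05, 7.95 and 6.82 on the null arrays, 9.63 and 8.45 on the heterozygous arrays and 8.09 and 7.39 on the wild-type arrays. Both heterozygous arrays were above all null arrays, null replicate 2 came close to heterozygous replicate 2, and heterozygous replicate 1 was the highest. The mitotic genes Nusap1 (-2.35), Top2a (-2.12), Plk1 (-1.87), Ndc80 (-1.83), Nuf2 (-1.59) and Mad2l1 (-1.34) passed, and Mki67, the Ki-67 antigen, gave 8.78, 9.86 and 8.31 against 11.45 and 10.74 (-2.11, adjusted p = 0.0503). Of the G1/S and replication list, with 34 genes listed, 30 on the array and 30 tested, 6 were lower and 0 higher in null cells, beside 3.22% lower and 4.26% higher among all genes. Unfiltered counts were 4 and 0. Tested members had a median log2 difference of -0.94, and all members on the array one of -0.94. The 6 were Rrm2 (-2.52), Gins1 (-1.45), Ccne2 (-1.45), Mcm7 (-0.93), Pold1 (-0.65) and Fen1 (-0.58), which encode a ribonucleotide reductase subunit, replication fork proteins and cyclin E2. Without heterozygous replicate 1, 0 mitotic and 0 replication genes passed (medians -1.17 and -0.61), and without heterozygous replicate 2 6 and 3 (medians -2.50 and -1.23).

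Cdkn1a and Cdkn1c, inhibitors of cyclin-dependent kinases, were lower in null cells too. Cdkn1a, the p53 target p21, stood at 7.71, 9.07 and 7.58 in null and 10.35 and 10.57 in heterozygous cells (-2.34 ± 0.44, adjusted p = 0.0317), and Cdkn1c, its imprinted relative p57, at 7.57, 6.54 and 7.65 against 9.12 and 9.23 (-1.92 ± 0.32, adjusted p = 0.0232). Of the D cyclins, Ccnd2 was higher in null (0.97) and Ccnd1 did not pass (0.08). Of 22 p53 targets tested, Cdkn1a (-2.34), Fas (-1.36), Ccng1 (-0.90) and Sesn2 (-0.87) were lower and 0 were higher, beside 3.22% lower and 4.26% higher among all genes. Fas passed the filter through the heterozygous arrays alone, and without the filter 3 targets were lower. Mdm2, the inhibitor that p53 induces, was at -0.13 (adjusted p = 0.462). Of 14 genes of the inhibitor and D cyclin list, 3 were lower, Cdk4 among them, and 1 was higher. Without heterozygous replicate 1 and 2, 0 and 2 of the 14 passed. The p53 counts were 0 lower and 0 higher without heterozygous replicate 1 (median -0.45), and 0 and 0 without heterozygous replicate 2 (median -0.10).

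Members of the Myc family moved in opposite directions. Myc stood at 7.76, 7.80 and 7.77 in null and 9.61 and 9.26 in heterozygous cells (-1.66 ± 0.12, adjusted p = 0.00229), and Mycn at 8.40, 8.07 and 8.34 against 7.15 and 7.07 (1.16 ± 0.17, adjusted p = 0.0169; 0.06 and 0.14 in its other probe sets, which are dimmer). Odc1, the polyamine enzyme (-0.91), and the nucleolar helicase Ddx21 (-0.94) were lower in null. Of 29 genes of this list, 3 were lower and 1 higher, beside 3.22% lower and 4.26% higher among all genes. The other 25 did not pass, the nucleolar Ncl (-0.69, adjusted p = 0.0771) and Npm1 (-0.51, adjusted p = 0.0516) among them. Cdk4, the kinase of the D cyclins, was lower too (-0.75 ± 0.15, adjusted p = 0.0349). Its window (chr10:127063285-127063584, plus strand, RefSeq, GRCm38.p6) is shown because the E-box CACGTG, the motif of Myc and Max, stands in it 4 times, in capitals.
Cdk4: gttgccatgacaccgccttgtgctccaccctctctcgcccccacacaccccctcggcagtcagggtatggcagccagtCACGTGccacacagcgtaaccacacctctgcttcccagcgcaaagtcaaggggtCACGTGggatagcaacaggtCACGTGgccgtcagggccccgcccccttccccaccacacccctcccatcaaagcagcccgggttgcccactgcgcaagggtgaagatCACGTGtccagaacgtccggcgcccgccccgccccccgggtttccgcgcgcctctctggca
An E-box was in 10.4% of the windows of genes lower in null, 9.73% of those of genes higher in null and 9.91% of those of all genes tested (7.15% of all windows). Of the Myc list 1 and 4 genes passed without heterozygous replicate 1 and 2.

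Stress and metabolic lists held a few genes each that passed. The metallothioneins Mt2 (9.24, 9.24 and 8.93 against 11.57 and 12.07, -2.68 ± 0.19, adjusted p = 0.00191) and Mt1 (-1.28, and -0.32 in its other probe set), which bind zinc and copper, were lower in null, and Mt3 was not called (0.17). Nfe2l2, the factor NRF2 of the antioxidant response, was lower (-0.75), as was its target Gstm1 (-0.78, adjusted p = 0.041, with -0.65 to 0.00 in other probe sets), while the targets Nqo1 (0.59), Hmox1 (-0.27) and Gclm (0.08) did not pass. Of 22 hypoxia and glycolysis genes, the glucose transporter Slc2a1 (-1.18), Ldha (-0.91) and Bnip3 (-0.70) were lower. Atf3 (-1.16) and Sesn2 were the 2 called of 30 genes of the ATF4 and unfolded protein responses, and Dhcr7 (0.57, higher) was the single one of 22 cholesterol genes, shares near those of all genes (3.22% lower and 4.26% higher). The respiratory chain gave 0 of 30 with limma, with a median of 0.01. At an unadjusted limma p under 0.05 there were 3 of its genes, beside 4174 of 14965 probe sets with arrays centred on the median. Of 27 immediate early and dissociation genes, Socs3 (-1.62), Hspb1 (-1.39), Atf3 (-1.16), Zfp36 (-1.02) and Junb (-0.71) were lower and Klf2 (0.79) higher, and Fos (-0.05), Egr1 (-0.05) and Dusp1 (-0.01) did not pass. Fits without heterozygous replicate 1 and 2 called 2 and 2 antioxidant and metallothionein genes, 0 and 1 hypoxia genes and 0 and 3 immediate early genes.

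A minority of progenitor genes passed, all higher in null cells. Of 22 genes listed, 16 on the array and 16 tested, 0 were lower and 4 higher in null cells, beside 3.22% lower and 4.26% higher among all genes. Without the filter the counts were 0 and 4. The median log2 difference was 0.43, and 0.43 over all members on the array. The 4 that passed were the brain proteoglycans Bcan (0.90 ± 0.16, adjusted p = 0.0284) and Cspg5 (0.84), Rlbp1 and the lineage factor Olig2, which stood at 11.50, 11.43 and 11.49 against 10.78 and 11.02 (0.57 ± 0.12, adjusted p = 0.0385). Pdgfra, a receptor for the injected growth factor, differed by 0.49 (adjusted p = 0.0672) and Sox10 by 0.06. The proneural list added the Notch ligands Dll1 (0.80) and Dll3 (0.71). Astrocyte genes split, with Gfap (-1.46), Aldh1l1 (-1.51), Aqp4 (-2.20), Sox9 (-0.94) and Ntsr2 (-0.58) lower and S100b (0.87) and Ndrg2 (0.58) higher, of 20 tested. Aldh1l1 passed the filter through the heterozygous arrays alone, and the unfiltered astrocyte counts were 5 lower and 1 higher. Gfap, the astrocyte filament, stood at 5.24, 5.30 and 4.92 against 6.73 and 6.50, and the water channel Aqp4 at 8.54, 7.55 and 7.07 against 9.89 and 9.95. Of 19 neural stem cell genes tested, 6 were lower, namely Cd44, Tnc, Sox9 and 3 Id genes, and 2 higher, the Notch targets Hes1 (1.17) and Hes5 (0.81). Without heterozygous replicate 1 and 2 the stem cell list had 0 and 2 called genes, and without the filter 6 lower and 0 higher. Progenitor counts were 0 lower and 0 higher without heterozygous replicate 1 (median 0.29), and 0 and 3 without heterozygous replicate 2 (median 0.63), and 0 and 1 astrocyte genes passed in these fits.

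Several Notch pathway genes were higher and the Id genes Id1, Id3 and Id4 lower in null cells. Of 24 genes listed, 24 on the array and 18 tested, 0 were lower and 7 higher in null cells, beside 3.22% lower and 4.26% higher among all genes. Unfiltered counts were 0 and 5. Tested members had a median log2 difference of 0.45, and all members on the array one of 0.23. Those that passed comprised the ligands Jag1 (7.12, 6.87 and 7.17 against 5.87 and 5.67, 1.28 ± 0.18, adjusted p = 0.0163), Dll1 and Dll3, the target genes Hes1 (1.17) and Hes5 (0.81, and 0.49 in its other probe set), the feedback gene Nrarp (0.96 in its other probe set) and the regulator Numb (0.68, and 0.27 in its other probe set), while the receptors Notch1 (-0.13) and Notch2 (0.07) did not pass. With heterozygous replicate 1 or 2 left out in turn, 0 and 0 of them passed, with medians of 0.40 and 0.40. Id1 (-1.43), Id3 (-1.75 ± 0.20, adjusted p = 0.00832) and Id4 (-1.52), inhibitors of basic helix-loop-helix factors that BMP signals induce, were lower, Id2 lay at 0.51 (adjusted p = 0.379), and no other of the 18 BMP and Id genes tested passed. With heterozygous replicate 1 or 2 left out in turn, 0 and 1 of them passed. Among 18 PDGF and ERK feedback genes tested, Pdgfa (-0.69) was lower, and the ERK phosphatase Dusp6 (0.71) and the inhibitor Spry4 (0.83) were higher. Nrg3 was the single one called of 9 EGF family genes tested (1.36), and Tgfb3 that of 15 TGF-beta genes (0.78), both higher in null. The counts of these 3 lists stand beside 3.22% lower and 4.26% higher among all genes.

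The listed ion channel, transmitter receptor, adhesion and guidance genes that passed were higher in null cells, apart from Tenm3 and Efna1. Cacng5, which was lower, is not on these lists. Of 38 ion channels listed, 32 were on the array, 25 were tested and 8 were higher (5 without the filter), beside 4.26% of all genes, among them the glial potassium channel Kcnj10 (0.60 ± 0.11, adjusted p = 0.0272), Kcnk1 (0.87), the cation channel Trpc1 (0.68) and Cacng4 (0.56). The other 4 were Kcnd2 (0.52), Cacna2d1 (0.82), Scn1a (0.73) and Kcnh2 (0.65). Of 26 transmitter receptors on the array and 16 tested, Tacr3, the endothelin receptor Ednrb (11.48, 11.31 and 11.23 against 9.94 and 10.003, with 11.28 and 11.03 in wild type, 1.37 ± 0.12, adjusted p = 0.00379), the GABA receptor subunit Gabrb1 (1.07) and the kainate receptor subunit Grik1 (0.85) were higher, and 12 had groups that did not overlap in that direction (all genes 25.8%). Contactins, teneurins and synaptic adhesion genes gave 6 higher, Cntn3 (2.08), Tenm1 (1.57), L1cam (1.51), Cntnap2 (0.99), Lrrtm1 (0.92) and Cadm3 (0.62), and 1 lower, Tenm3 (-0.96), of 20. Of 21 cadherins and protocadherins, Pcdhb9 and Pcdh8 (1.32) were higher. The guidance genes Epha5 (1.34), Robo1 (0.87) and Sema5a (0.69) were higher and Efna1 (-0.78) lower, of 34 tested, beside 3.22% lower and 4.26% higher among all genes. The neuronal markers Gad1 (1.01) and Snap25 (0.90) were higher, while Stmn2 (-0.01), Tubb3 (0.04), Gap43 (-0.40), Nefm (-0.96) and Nefl (-0.85) did not pass, and the median of the 13 neuronal genes was 0.04. Channel counts were 0 lower and 0 higher without heterozygous replicate 1 (median 0.24), and 0 and 4 without heterozygous replicate 2 (median 0.67). For transmitter receptors 0 and 4 genes passed without heterozygous replicate 1 and 2, and for adhesion genes 0 and 6.

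Of receptor phosphatases outside the LAR family, 5 were higher and 1, the leukocyte gene Ptprc (-1.27), lower in null cells, of 14 tested and beside 3.22% lower and 4.26% higher among all genes. Without the filter 3 were higher. Of the LAR family, the relatives Ptprs (0.34, adjusted p = 0.243) and Ptprf (-0.07) did not pass, and of 8 family members and partners tested the synaptic partner Slitrk1 was the single one called (0.90 ± 0.16, adjusted p = 0.0262). Among the others, the adhesion phosphatases Ptprm (0.63) and Ptpru (0.57), Ptpro (0.51) and Ptprr (0.91) were higher in null, and Ptprk was higher at its brightest probe set (0.64) with -0.20 to 0.29 in others. With heterozygous replicate 1 or 2 left out in turn, 0 and 1 of the 14 passed.

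**Figure D4:**
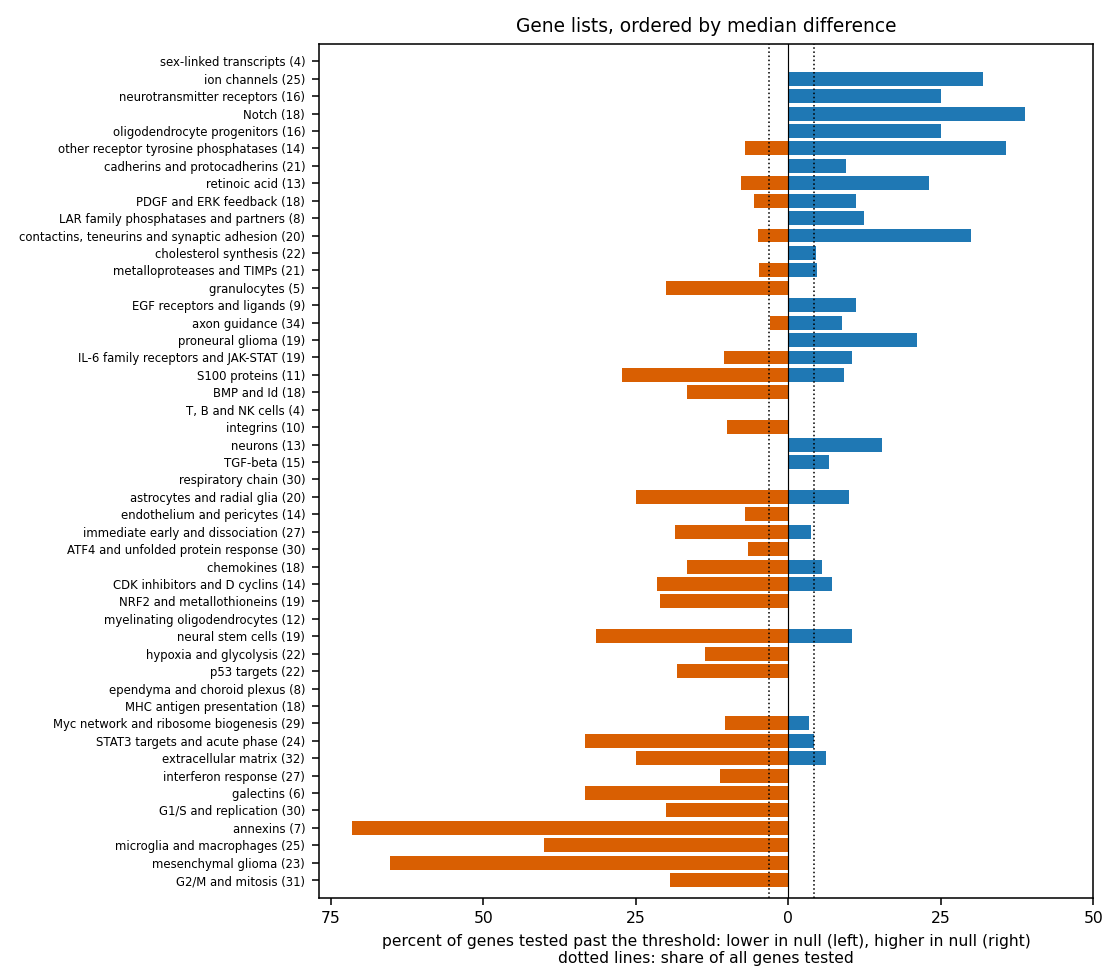
Share of the tested genes of each list (number in brackets) past an adjusted p of 0.05, to the left where lower and to the right where higher in null cells; the dotted lines mark the shares of all genes, 3.22% and 4.26%. Lists are ordered by their median difference. Shares are of genes that passed the filter, which some members of several lists did through the heterozygous arrays alone. Among these were 2 of the 7 annexins, 4 of the 18 chemokines and 2 of the 23 mesenchymal genes. The macrophage list had 3 of 25 and the STAT3 list 3 of 24. On the right, Notch genes stand at 7 of 18.

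Probe sets of a gene did not always move together. Of the genes lower in null, 106 had several tested probe sets, of which 48 had all of them past the threshold and 8 had 1 or more of the opposite sign. Of the genes higher in null the numbers were 150, 38 and 12.

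**Figure D5:**
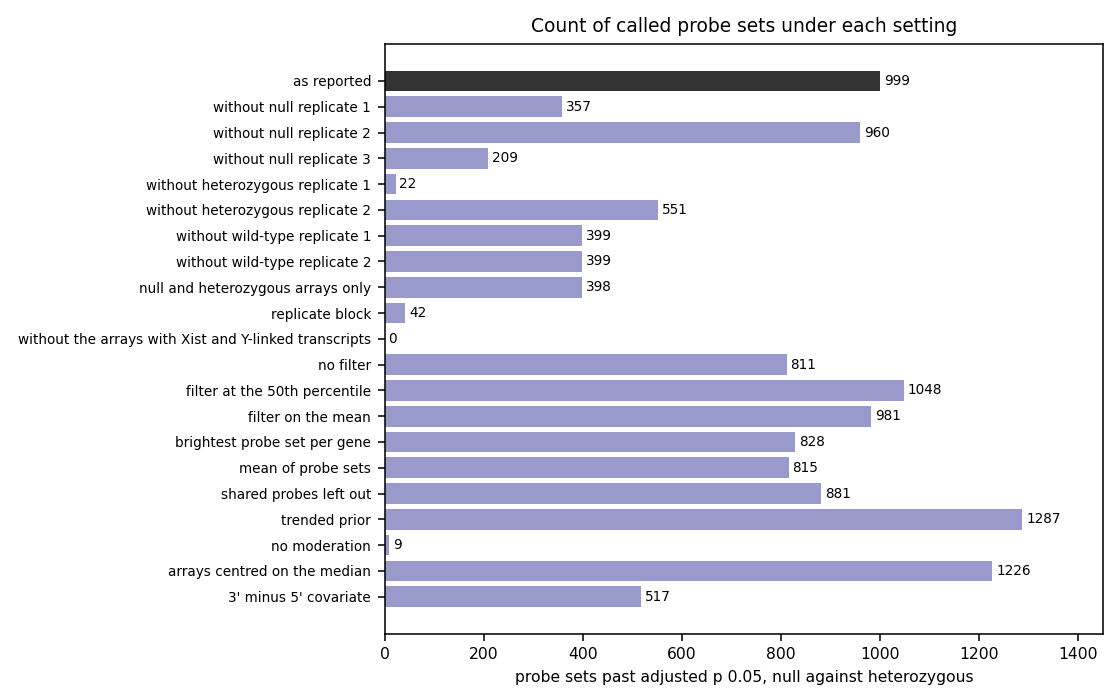
Number of probe sets past an adjusted p of 0.05 in null against heterozygous cells as reported (dark bar, 999) and under each other setting (light bars). The count falls to 22 without heterozygous replicate 1 and to 9 without moderation, and is 960 without null replicate 2.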

How the data were processed

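The deposited table holds log2 expression values of 22690 probe sets on 7 arrays. Per the submitters' processing notes the authors used RMA and Partek 6.6, with settings not given in the sources used here. RMA corrects background, brings probe intensities to a common distribution and summarises probe sets, so a shift of all genes in 1 direction cannot be seen. Probe sets were named from the platform annotation; 20380 named 1 gene, 691 several and 1555 none, and 21 single-gene probe sets had no RefSeq match.

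Tests covered the 14965 single-gene probe sets that exceeded their array's 30th percentile on 2 or more arrays. In R 4.3.3, limma 3.58.1 estimated the 3 genotype means from 7 arrays (4 residual degrees of freedom), with moderated two-sided tests of null minus heterozygous and Benjamini-Hochberg adjustment over all probe sets. Dim probe sets that pass through 1 group alone tend to differ, so list medians are given over all members on the array too. On simulated data for this comparison (14965 probe sets) 11.9%, 64.2% and 95.5% of changes of 0.5, 1 and 2 (log2) were recovered, with 7 false calls. The noise was drawn independently for each probe set, and changes were placed in the null group alone. Deviations that probe sets of an array share were therefore not simulated. Named are Ptprd, the 15 largest called differences each way whose groups do not overlap, up to 4 members of smallest p per list, and further list members, chosen for their role or to complete a list's called genes after their values were seen. The comparison, lists and motifs were chosen with earlier results of these data known. Alternatives covered arrays left out, the replicate block, filters, probe set choice, moderation, centring and 3' bias.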

Additional observations from a re-analysis of the deposited data

How the results depend on the processing

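Of 999 probe sets and 692 genes called, leaving out 1 array gave between 22 (heterozygous replicate 1) and 960 probe sets (null replicate 2) and between 14 and 665 genes. The fit of null and heterozygous arrays alone gave 398 probe sets and 288 genes, the 3' minus 5' covariate 517 probe sets and 362 genes, no moderation 9 probe sets and 5 genes, and leaving out the arrays with Xist and Y-linked transcripts 0 probe sets and 0 genes. The last leaves 1 heterozygous array and fewer degrees of freedom; beyond that the cause of these losses was not tested. With the replicate block 42 probe sets and 27 genes passed. The labels tie no array of 1 genotype to an array of another, so the number is not taken as a pairing. The deviations of same-numbered null and heterozygous arrays from their group means correlated at 0.00 and -0.19 for replicates 1 and 2. With 2 heterozygous arrays these deviations mirror each other, so the correlations cannot decide on a pairing. The other filters, probe set choices, the trended prior and median centring kept both counts within 1.5 times. The Ptprd difference of 0.00, never called, was -0.06 without null replicate 1, -0.21 without null replicate 3, -0.08 without heterozygous replicate 1, -0.21 with the replicate block and -0.13 without the arrays with Xist and Y-linked transcripts, and ran up to 0.27. Of the 163 named genes past the threshold, 135 passed without a filter, 111 with the 3' covariate, 16 with the block and 8 without heterozygous replicate 1. The number of arrays limits the precision, and low signals compress differences.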
